A study of Mus musculus with 8 samples.

Results

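CD45+/Sca1+ cells of cardiotoxin-injured muscle were compared with the same sort from resting muscle. The comparison takes the 2 arrays of each group, 4 of the 8 arrays of the series, and all 22626 probe sets that are not array controls. CD45 is a phosphatase on the surface of white blood cells, and Sca1 is an anchored antigen used to sort stem cells, which some mature cells carry too. All mice were C57BL/6 aged 6 to 8 weeks, and no transgene or deletion is given in the labels. The resting group is muscle with no stated treatment. The injured group is muscle marked +Ctx, taken here as cardiotoxin, a snake venom toxin that destroys muscle fibres. The other 2 groups, injured muscle of mice with a bone marrow transplant and bone marrow itself, entered the fit and are given only as side values. The sources used here give no dose, no time after injury and nothing on pooling of animals. Whether the 2 arrays of a group come from different mice is likewise unstated, so p-values reflect array-to-array spread that may be purely technical.

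Toxin injury of skeletal muscle kills fibres and is followed by an influx of blood cells. Neutrophils arrive first, monocytes follow through the receptor CCR2, and these become macrophages that clear debris and later aid repair. Resting muscle holds its own macrophages, mast cells and a few lymphocytes beside endothelial cells, pericytes, fibroblasts and satellite cells. Because the RNA comes from bulk sorted cells, fewer cells of a type and less RNA per cell cannot be told apart in any value below.

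Values are deposited intensities on a linear scale, given for uninjured array 1 and 2 and then injured array 1 and 2. Log2 fold changes are injured minus uninjured on the log2(value + 4) scale, with the standard error (SE) and the Benjamini-Hochberg adjusted p of limma, and a gene is called at an adjusted p under 0.05. The RNA controls of the array differed between the groups. The ratio of the 3' to the 5' Gapdh control was 46.9 and 13.6 on the uninjured arrays and 0.833 and 0.808 on the injured arrays. The same ratio for beta-actin was 19.0 and 10.1 against 1.20 and 1.23. The 18 bacterial and phage control probe sets had a geometric mean of 686 and 652 against 2050 and 1287. The brightest probe set reached 14440 and 13615 on the uninjured arrays and 28264 and 28665 on the injured arrays, while the medians overlapped (67.1 and 75.8 against 61.8 and 66.3). Across probe sets, which are not independent, log2 values of the 2 uninjured arrays correlated at 0.895. The 2 injured arrays correlated at 0.947, and pairs between these groups lay between 0.794 and 0.837. Bone marrow correlated with uninjured muscle at 0.841 to 0.900 and with injured muscle at 0.799 to 0.804. Marrow also had high Gapdh ratios (24.4 and 10.7), whereas injured muscle after a transplant had low ones (0.882 and 0.868). The Gapdh ratio thus sets resting muscle and marrow apart from both kinds of injured muscle. The controls separate the 2 groups compared here, and their part in the results was not tested. For this reason genes whose several probe sets were called in the same direction lead the account.

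Of 16289 probe sets tested, 1973 were called higher in injured muscle (12.1%) and 2262 lower (13.9%). With the brightest probe set standing for its gene, 834 of 9513 genes rose (8.77%) and 1441 fell (15.1%), and these shares are the background for every list below. The median log2 fold change over all tested genes was -0.25. Centring each array on its median moved the median of all probe sets from -0.14 to 0.0045 and turned the split of calls from 46.6% to 56.5% higher. The groups did not overlap for 2328 genes in the higher direction (24.5%) and 3814 in the lower (40.1%). Leaving out 1 of the 4 compared arrays leaves 1 array in its group, so the spread of that group no longer enters the fit. Changed counts and lost calls in such fits, here and below, also reflect this change of precision. Effect sizes moved little for some genes and more for others. Without injured array 1 and 2, Thbs1 had log2 fold changes of 3.55 and 3.60 against 3.58 with all arrays. Timp4 had -7.36 and -5.37 against -6.37.

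Several probe sets were tested for 3544 genes, and all of them were called higher for 91 genes (2.57%) and all lower for 82 (2.31%). Among the 337 such genes called higher by their brightest probe set, 91 (27.0%) had every probe set called higher, and 211 (62.6%) had the same sign throughout. Among the 619 called lower, 82 (13.2%) had every probe set called and 336 (54.3%) had the same sign. A probe set called the opposite way was present in 30 and 62 of them. Within a gene, the log2 fold changes of the probe sets spanned a median of 1.45 in this comparison. Between transplanted and untransplanted injured muscle, where the RNA controls were alike, the median span was 0.40. That comparison also had far fewer called genes (30 against 2275), and the cause of the narrower span was not tested. The 91 fully agreeing rises fell to 10 without injured array 1 and 13 without injured array 2, to 54 without either transplanted array, and grew to 232 without uninjured array 2. The 82 agreeing falls became 13 and 18 without injured array 1 and 2, and 130 without uninjured array 2.

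**Figure D1:**
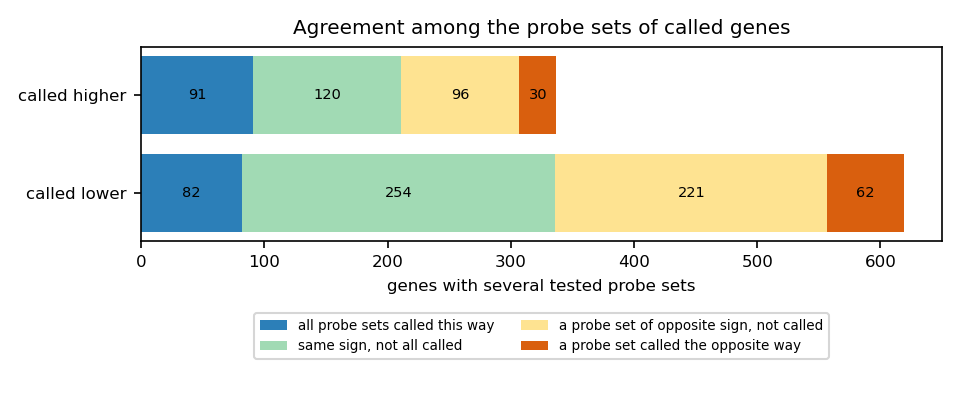
Number of genes with several tested probe sets that were called higher (337) or lower (619) in injured muscle by their brightest probe set, divided by how their other probe sets behaved. All probe sets were called the same way in 91 and 82 of them, and a probe set was called the opposite way in 30 and 62.

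Ranked by the median log2 fold change over their probe sets, the 15 largest rises among genes with full agreement were Cx3cr1, Zbp1, Thbs1, Gla, Ncf1, Mmp14, Cxcl16, Pik3cd, Abhd12, Gusb, Adap2, Srgap2, Psap, Il1rn and Sirpa. Zbp1, a cytosolic sensor of nucleic acids that interferon induces, had intensities of 76.4 and 77.1 on the uninjured arrays and 1880 and 1491 on the injured arrays. Its probe sets rose by 4.38 (SE 0.29, adjusted p = 0.00037) and 3.80. Ncf1, the organiser subunit of the phagocyte NADPH oxidase, had 47.0 and 109 against 1185 and 1347, with 4.06 (SE 0.41, adjusted p = 0.00113) on its brightest probe set and 3.46 on the other. Gla and Gusb, which encode the lysosomal enzymes alpha-galactosidase and beta-glucuronidase, rose as well. Gla had 131 and 178 against 1069 and 1078 (log2 fold change 2.78, SE 0.30, adjusted p = 0.00138). Gusb had 541 and 594 against 2543 and 2274 (2.08, SE 0.31, adjusted p = 0.00413). Both injured arrays lay above both uninjured ones on every probe set of these 4 genes, which the selection required.

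Cxcl16, a chemokine that also exists as a membrane-bound scavenger receptor, had 198 and 440 before and 2584 and 2796 after injury (log2 fold change 3.17, SE 0.38, adjusted p = 0.00201). Mmp14, a membrane-anchored collagenase, had 101 and 199 against 777 and 757 (2.40, SE 0.40, adjusted p = 0.00552). Il1rn encodes the secreted antagonist of the interleukin 1 receptor and had all 3 of its probe sets called. Its intensities were 11.4 and 44.3 against 1353 and 1559, and the log2 fold change of 5.74 (SE 0.71, adjusted p = 0.00209) became 4.91 without uninjured array 1 and 6.56 without uninjured array 2. Cx3cr1, the fractalkine receptor of monocytes and macrophages, had 419 and 112 against 1721 and 1482. Its change of 2.85 (SE 0.60, adjusted p = 0.0128) was 3.79 without uninjured array 1 and 1.92 without uninjured array 2, and its adjusted p was 0.0843 without injured array 1 and 0.068 without injured array 2. Thbs1, the matricellular protein thrombospondin 1, had 305 and 92.1 against 2083 and 2015 and lost its call in the same way (adjusted p = 0.0747 and 0.0691), with 4.42 and 2.73 without uninjured array 1 and 2.

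By the same median, the 15 largest falls with full agreement were Igha, Ms4a1, Satb1, Timp4, Spint2, Hspa1b, Gabbr1, Crispld1, Enpp3, Slc2a3, Scd1, Gimap4, Nrarp, Myh1 and Limch1. Where injured values lie under the filter value given below, a place in this order is not exact. Igha, the constant region of the immunoglobulin A heavy chain, had 1854 and 1094 in uninjured and 16.5 and 9.34 in injured muscle. Both injured values are under 38.4, the filter value used here, so the fold was computed against it: Igha was at least 34.9-fold lower, and its 3 probe sets gave log2 fold changes between -6.43 and -4.00. Ms4a1, which encodes the B cell surface protein CD20, had 2034 and 1677 against 19.7 and 12.3 and was at least 43.9-fold lower. Satb1 is a chromatin organiser of lymphocytes, and its 3 probe sets gave -5.10, -5.04 and -5.43. It had 1027 and 1532 against 35.9 and 29.6, at least 30.3-fold lower. These 3 genes had the same order on each probe set, with no overlap between the groups, which the selection required.

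Scd1, a desaturase that makes monounsaturated fatty acids, had 1329 and 1541 against 101 and 141 (log2 fold change -3.54, SE 0.40, adjusted p = 0.00171). Slc2a3, a glucose transporter, had 1133 and 1214 against 81.5 and 106 (-3.60, SE 0.34, adjusted p = 0.001). Gimap4, a lymphocyte GTPase, had 1809.8 and 1095 against 114 and 143 (-3.42, SE 0.39, adjusted p = 0.00169). Both probe sets of each were called, which the selection required. In each the lower uninjured value was many times the higher injured value. Nrarp, a target and attenuator of Notch signalling, had 377 and 293 against 44.9 and 31.9 (-3.01, SE 0.35, adjusted p = 0.0019). Enpp3, an ectonucleotidase carried by basophils and mast cells, had 204 and 112 against 17.7 and 16.3, at least 3.83-fold lower. The spread between replicates was smaller than each of these differences.

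**Figure D2:**
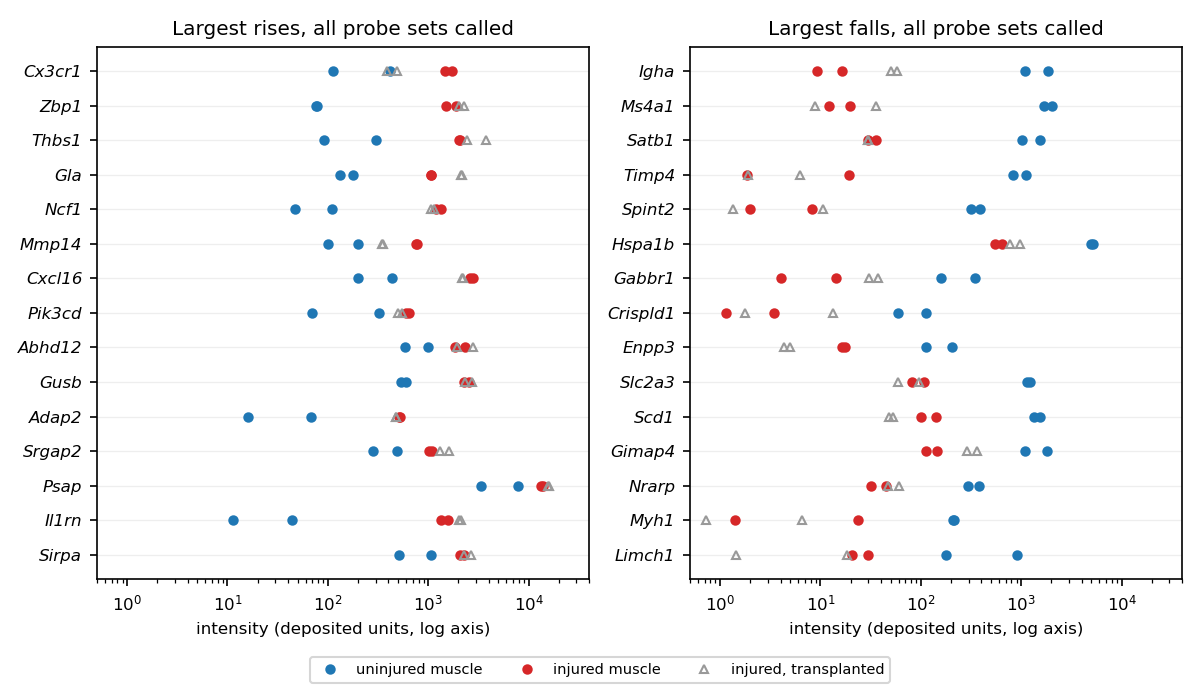
Intensity of the brightest probe set (log axis) on each uninjured, injured and transplanted injured array for the 15 largest rises and 15 largest falls among genes with all probe sets called. For every gene shown, both injured arrays lie on the same side of both uninjured arrays, which the selection required. Zbp1, for example, had 76.4 and 77.1 against 1880 and 1491.

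General leukocyte genes are the check on the CD45 sort, and 16 of them were tested. Of these 5 rose (31.2%) and 1 fell, with a median log2 fold change of 1.00. Ptprc, the gene of CD45 itself, was bright on all 4 arrays, with 6476 and 4924 against 5976 and 6996, and its small difference did not pass the test (0.20, SE 0.21, adjusted p = 0.513). The sign of that difference turned under quantile normalization (-0.27) and cyclic loess (-0.18). Cd52, a small glycoprotein of lymphocytes and myeloid cells, rose from 2868 and 3105 to 7189 and 7094 (1.26, SE 0.16, adjusted p = 0.00226), with no overlap. Coro1a and Hcls1, cytoskeletal proteins of blood cells, were low on uninjured array 1 alone: Coro1a had 249 and 3893 against 4261 and 4413, and Hcls1 39.1 and 774 against 1004 and 988. Both were chosen after their values were seen, and neither passed the test. The 5 rises became 1 without injured array 1, 1 without injured array 2, and 9 without uninjured array 2. Ly6a, the gene of Sca1, was not analysed here because no probe set carries its name.

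Genes of monocytes and macrophages rose together. Of 24 tested members of the core list 20 rose (83.3%) and 0 fell, against 8.77% and 15.1% of all genes, and the median log2 fold change was 1.80. The count was 11 without injured array 1 and 12 without injured array 2. The summed intensity of the list was 47090 and 59180 on the uninjured arrays and 151179 and 155367 on the injured arrays. All probe sets were called higher for 4 of the 8 members that have several. Clec4e, a C-type lectin that senses dead cells, rose from 654 and 505 to 2715 and 2228 (2.09, SE 0.32, adjusted p = 0.00412) with both of its probe sets called. The next members were chosen after their values were seen. Fcer1g, the signalling chain shared by Fc receptors, had 1113 and 1544 against 8211 and 8585 (2.68, SE 0.22, adjusted p = 0.000697). Ms4a7, a membrane protein of macrophages, had 1146 and 1200 against 7311 and 6754 (2.58, SE 0.21, adjusted p = 0.00081). Ccr2, the receptor that brings monocytes out of the blood, had 140 and 59.1 against 2560 and 3135 (4.90, SE 0.42, adjusted p = 0.000852), or 5.49 without uninjured array 1. That was its brightest probe set. The others gave 2.88 (adjusted p = 0.0111) and 1.78, which was not called (adjusted p = 0.0863). Itgam, the CD11b integrin chain, was under 38.4 on both uninjured arrays (14.3 and 37.9) and had 527 and 655 after injury. It was at least 14.0-fold higher, and its log2 fold change of 4.42 became 3.82 without uninjured array 1 and 5.01 without uninjured array 2.

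The macrophage markers Csf1r, Adgre1 and Cd68, chosen after their values were seen, also rose, with less margin. Csf1r, the receptor of macrophage colony-stimulating factor, had 7158 and 9006 against 14785 and 15622. Its change of 0.92 (SE 0.20, adjusted p = 0.0134) lost its call without injured array 1 (adjusted p = 0.0757) and 2 (0.0874) and under quantile normalization and cyclic loess. Adgre1, which encodes F4/80, had 1906 and 2016 against 5884 and 6232 (1.62, SE 0.36, adjusted p = 0.0148; 0.0823 and 0.0879 without injured array 1 and 2). On the brightest probe set the groups did not overlap for any of the 3 genes. Csf1r gave 2.92 (adjusted p = 0.0331) on another probe set. On a further one its groups overlapped and it did not pass the test (0.13, adjusted p = 0.687). Cd68, a lysosomal membrane protein, had 484 and 2024 against 8829 and 9166 (3.18, SE 0.63, adjusted p = 0.00992). Its change was 2.15 without uninjured array 1 and 4.20 without uninjured array 2, and its adjusted p was 0.0626 without either injured array.

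Genes of resident-type and alternatively activated macrophages did not move as a group. Of 21 tested, 4 rose (19.0%) and 5 fell (23.8%), and the median log2 fold change was 0.09. The 4 rises ranged from 1 without injured array 1 to 9 without uninjured array 2, and the 5 falls became 3 without either injured array. Retnla, a secreted protein of alternatively activated macrophages, fell from 10803 and 9529 to 344 and 306 (-4.95, SE 0.28, adjusted p = 0.000162). Lyve1, a hyaluronan receptor of lymphatic vessels and of perivascular macrophages, fell from 3150 and 2276 to 340 and 280 (-3.10, SE 0.51, adjusted p = 0.00526), with both probe sets called. Chil3, a chitinase-like protein that neutrophils and alternatively activated macrophages both make, fell from 5165 and 3314 to 1033 and 1024 (-2.004, SE 0.25, adjusted p = 0.00213). Some other members of the same list rose or were not called. Ccl8, a monocyte attractant, rose from 1287 and 2564 to 7787 and 8338 (2.15, SE 0.33, adjusted p = 0.00423). Mrc1, the mannose receptor CD206, was chosen after its values were seen. It had 5495 and 5070 against 4909 and 4778 and did not pass the test (-0.12, SE 0.28, adjusted p = 0.765). Arg1, the arginase that marks alternative activation, was chosen after its values were seen and had 194 and 219 against 1659 and 1117 (2.70, SE 0.45, adjusted p = 0.00561; 0.0553 without injured array 1). Each of Retnla, Lyve1 and Chil3 was higher on both uninjured arrays than on either injured array, and each of Ccl8 and Arg1 was lower.

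Of 28 inflammatory cytokines and chemokines tested, 13 rose (46.4%) and 4 fell (14.3%), with a median of 0.83. Ccl2, the main ligand of CCR2, rose from 1509 and 1277 to 8395 and 8438 (2.60, SE 0.22, adjusted p = 0.00081). Ccl7, a second ligand of the same receptor, had 819 and 1301 against 6158 and 5921 (2.54, SE 0.39, adjusted p = 0.00444). Il1b, the fever-inducing interleukin 1 beta, had 2446 and 2056 against 10417 and 10831 (2.24, SE 0.21, adjusted p = 0.001). The receptor Ccr2 and its ligands Ccl2 and Ccl7 were therefore brighter on both injured arrays than on either uninjured array. Cxcl10, a chemokine that interferon induces, had 429 and 469 against 2706 and 2563 (2.54, SE 0.34, adjusted p = 0.00278). Ccl7, Il1b and Cxcl10 were chosen after their values were seen. Ccl5, a chemokine of T and natural killer cells, went the opposite way, from 1187 and 1783 to 331 and 268 (-2.27, SE 0.34, adjusted p = 0.00399). Tnf, tumour necrosis factor, had 152 and 759 against 582 and 813 and Il6, interleukin 6, had 595 and 369 against 683 and 454. The groups overlapped for both genes, chosen after their values were seen, and neither passed the test. Leaving out a single array kept the counts of rises and falls of this list within 1.5 times.

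Interferon-induced genes formed the second most uniform group of rises. Interferons are secreted signals of infection and tissue damage, and many of their target genes carry a short response element in the promoter. Of 30 tested members 19 rose (63.3%) and 1 fell, with a median log2 fold change of 1.88, and 12 rose without injured array 1 and 11 without injured array 2. The promoters below show the element in front of genes that differ in their response: Irgm1, Trim30a and Bst2 were called higher and Igtp was not. They were chosen after their values were seen, among windows that hold the element and overlap no other annotated gene. Each is the stretch of 250 bases before the RefSeq transcription start, read 5′ to 3′ on the gene's strand in build GRCm38.p6, with the element (GAAA, then NN, then GAAA) or its reverse complement in capitals.

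Irgm1 (chr11:48871421-48871670, minus strand): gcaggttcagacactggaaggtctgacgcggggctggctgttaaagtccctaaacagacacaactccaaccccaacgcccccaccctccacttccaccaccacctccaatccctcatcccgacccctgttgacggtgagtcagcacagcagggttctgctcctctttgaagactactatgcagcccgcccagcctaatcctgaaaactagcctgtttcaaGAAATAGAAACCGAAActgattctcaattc
Trim30a (chr7:104465194-104465443, minus strand): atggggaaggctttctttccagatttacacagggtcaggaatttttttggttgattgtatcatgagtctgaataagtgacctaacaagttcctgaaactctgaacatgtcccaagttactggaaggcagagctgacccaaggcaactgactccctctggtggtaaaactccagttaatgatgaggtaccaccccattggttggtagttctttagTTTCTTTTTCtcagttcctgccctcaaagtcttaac
Bst2 (chr8:71537473-71537722, minus strand): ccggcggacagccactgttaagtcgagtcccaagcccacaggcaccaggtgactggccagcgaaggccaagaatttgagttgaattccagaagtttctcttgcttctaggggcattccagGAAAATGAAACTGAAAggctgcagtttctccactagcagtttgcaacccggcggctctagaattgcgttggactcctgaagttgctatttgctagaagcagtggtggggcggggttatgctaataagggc
Igtp (chr11:58199306-58199555, plus strand): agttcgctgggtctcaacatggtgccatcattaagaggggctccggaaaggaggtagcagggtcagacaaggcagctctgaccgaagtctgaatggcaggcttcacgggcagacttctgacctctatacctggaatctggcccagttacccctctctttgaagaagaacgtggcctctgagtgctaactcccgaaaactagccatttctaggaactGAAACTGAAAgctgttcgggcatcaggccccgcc

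Irgm1 and Igtp are GTPases of 1 family that act against intracellular microbes, Trim30a is a tripartite-motif protein, and Bst2, also called tetherin, holds budding viruses on the cell surface. Irgm1 had 231 and 248 against 775 and 886 (1.77, SE 0.27, adjusted p = 0.00423). Trim30a had 2192 and 1634 against 5860 and 5842 (1.63, SE 0.23, adjusted p = 0.00308), and its other probe set was not called (1.11, adjusted p = 0.0747). Bst2 had 90.5 and 339 against 2650 and 2403 (3.81, SE 0.53, adjusted p = 0.00306), or 2.88 without uninjured array 1 and 4.74 without uninjured array 2. Both injured arrays lay above both uninjured ones for these 3 genes. Igtp had 570 and 781 against 729 and 655, so its groups overlapped (0.05, SE 0.27, adjusted p = 0.907). The letters GAAA, NN and GAAA in a row were searched on both strands of each window, and overlapping matches were kept. They occurred in 2.98% of all 32851 promoter windows, in 3.48% of the 7682 tested genes with a window, and in 11 of the 24 list members with a window (45.8%). The list was assembled from genes known as interferon targets, so this share is a description of the list. Among tested genes with a window, the element was found in 6.34% of those called higher and 3.05% of those called lower.

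Ifit3, a protein that interferon induces to block viral translation, rose from 407 and 521 to 2812 and 2484 (2.51, SE 0.25, adjusted p = 0.00113). Ifi35, an interferon-induced leucine zipper protein, had 97.2 and 114 against 953 and 842 (3.04, SE 0.29, adjusted p = 0.001). Mx1, an antiviral dynamin-like GTPase chosen after its values were seen, had 109 and 109 against 678 and 767 (2.68, SE 0.38, adjusted p = 0.00336). In these genes the replicates of a group lay close together and far from the other group. Stat2, a transcription factor that interferon activates, had 25 and 51.6 against 207 and 175 (2.28, SE 0.46, adjusted p = 0.011), with both probe sets called, and lost its call without injured array 1 (adjusted p = 0.0787) and 2 (0.0591). Irf1, a transcription factor that interferon gamma induces, was the 1 member that fell, from 2240 and 2602 to 1008 and 923 (-1.32, SE 0.22, adjusted p = 0.00589; 0.0546 without injured array 2). Ifng, interferon gamma, had 387 and 206 against 41.1 and 26.7 (-2.94, SE 0.41, adjusted p = 0.00306). Irf1 and Ifng were chosen after their values were seen.

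**Figure D3:**
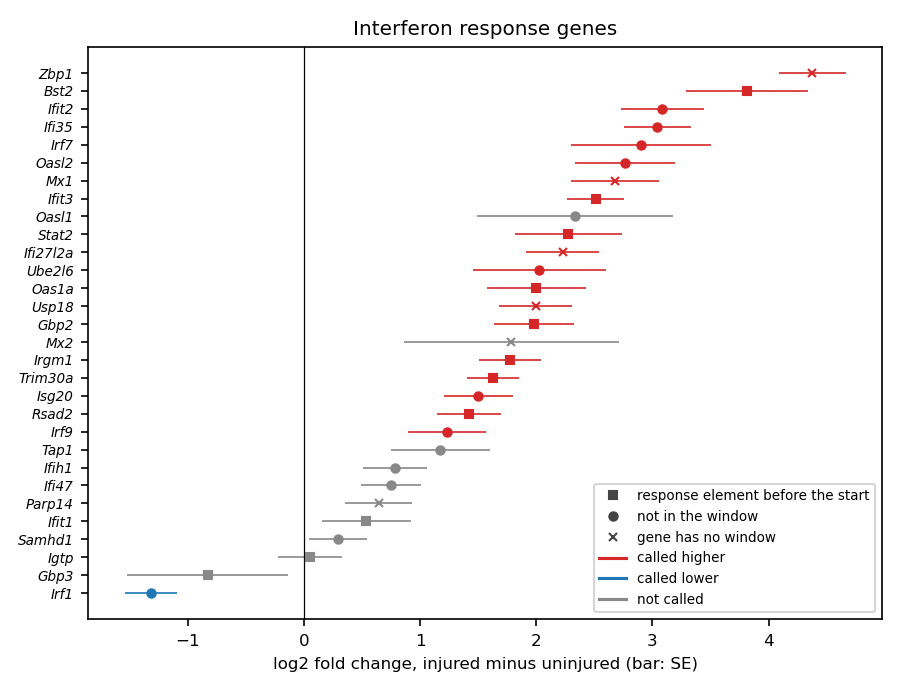
Log2 fold change (injured minus uninjured, bars SE) of the 30 tested interferon response genes, with symbols for whether the 250 bases before the start hold the response element and colours for the call. Of these 19 were called higher, and Irf1 with -1.32 was called lower.

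Of 22 lipid handling and phagocytosis genes tested, 10 rose (45.5%) and 2 fell (9.09%), the median was 1.13, and 4 rose without either injured array. Axl, a receptor for apoptotic cells, rose from 127 and 73.3 to 1367 and 1305 (3.73, SE 0.40, adjusted p = 0.0014). Mertk, its relative on macrophages, had 281 and 292 against 1395 and 1146 (2.13, SE 0.30, adjusted p = 0.00336). Lgals3, a galectin of phagocytes, had 2809 and 4591 against 18406 and 18692 (2.37, SE 0.29, adjusted p = 0.00208). None of these groups overlapped. Gpnmb, a glycoprotein of lipid-laden macrophages, had 86.4 and 390 against 3687 and 3126 (4.17, SE 0.60, adjusted p = 0.00347), or 3.11 without uninjured array 1 and 5.23 without uninjured array 2. Mertk, Lgals3 and Gpnmb were chosen after their values were seen. Fabp4, a fatty acid carrier of fat and capillary endothelial cells as well as macrophages, fell from 6521 and 4101 to 486 and 405 (-3.53, SE 0.32, adjusted p = 0.000963), with 2 of its 4 probe sets called. Apoe, apolipoprotein E, had 195 and 11169 against 23572 and 24397. Uninjured array 1 alone was low for it, and the difference did not pass the test (adjusted p = 0.0769). Apoe was chosen after its values were seen.

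Of 31 lysosomal genes 13 were called higher (41.9%) and 0 lower, with a median of 1.27. The count was 5 without injured array 1, 6 without injured array 2 and 20 without uninjured array 2. Atp6v1a, the catalytic subunit of the proton pump that acidifies lysosomes, rose from 441 and 360 to 2911 and 2948 (2.86, SE 0.32, adjusted p = 0.00158) on the brighter of its 2 probe sets. The other was not called (1.13, adjusted p = 0.0742). Ctsd, cathepsin D, had 411 and 6058 against 7791 and 7128 and did not pass the test (adjusted p = 0.128). It was chosen after its values were seen, and again uninjured array 1 stood apart from the other 3 arrays.

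Genes of the NADPH oxidase and its antioxidants, of iron and of complement gave smaller counts. Of 15 oxidase and antioxidant genes 3 rose (20.0%) and 2 fell. Cybb, the membrane subunit that carries electrons to oxygen, rose from 137 and 105 to 1726 and 1655 (3.77, SE 0.43, adjusted p = 0.00171), and with Ncf1 above it made the largest rises of that list. Of 16 iron and heme genes 5 rose (31.2%) and 2 fell. Fth1, the ferritin heavy chain that stores iron, had 3485 and 6294 against 21539 and 21111 (2.19, SE 0.25, adjusted p = 0.0018), on 1 of its 2 probe sets. Of 14 complement genes 4 rose (28.6%) and 3 fell. Cfb, factor B of the alternative pathway, had 75.7 and 180 against 1709 and 1897 (3.90, SE 0.53, adjusted p = 0.00285), or 3.29 without uninjured array 1 and 4.50 without uninjured array 2. Cd55, which shields cells from complement, fell on both probe sets from 258 and 161 to 19.4 and 18.9, at least 5.04-fold. The groups did not overlap for any of these 4 genes. Without injured array 1 and 2, rises numbered 2 and 2 in the oxidase list, 1 and 1 in the iron list, and 1 and 1 in the complement list, and without uninjured array 2 they numbered 7, 6 and 7. The falls numbered 0 in the oxidase and iron lists without either injured array, and 1 in the complement list without injured array 2. Iron list falls numbered 4 without uninjured array 2.

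Of 10 MHC class II presentation genes 3 rose and 0 fell, with 5 rises without uninjured array 2 and 2 without uninjured array 1 or any single injured array. Ifi30, a lysosomal thiol reductase that prepares antigens, rose from 1854 and 2562 to 10392 and 10264 (2.24, SE 0.21, adjusted p = 0.001). H2-Aa, a class II alpha chain, had 4442 and 6568 against 17131 and 19782 (1.77, SE 0.21, adjusted p = 0.0019), a call that was lost without the cross-reacting probe sets. H2-Ab1, the matching beta chain, had 3447 and 6939 against 6836 and 6509, chosen after its values were seen; its groups overlapped and it did not pass the test (adjusted p = 0.42). Of 16 dendritic cell and costimulation genes 0 rose and 1 fell, with a median of -0.26.

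Matrix remodelling genes rose more often than all genes did, with 12 of 26 higher (46.2%), 1 lower and a median of 1.00. The rises numbered 7 without either injured array, and the falls 6 without uninjured array 2. Mmp12, the macrophage elastase, rose from 45.5 and 60.7 to 444 and 461 (3.01, SE 0.33, adjusted p = 0.00151). Timp1, an inhibitor of metalloproteinases, had 117 and 122 against 844 and 938 (2.85, SE 0.46, adjusted p = 0.00496). Loxl1, a cross-linker of elastin, had 88.9 and 112 against 640 and 673 (2.67, SE 0.41, adjusted p = 0.00425). Replicates of these genes agreed closely in both groups. Tnc, the matrix glycoprotein tenascin C, had 118 and 24.0 against 1006 and 949 (4.07, SE 0.62, adjusted p = 0.00427), or 5.13 and 3.01 without uninjured array 1 and 2. Postn, periostin, had 576 and 161 against 2823 and 2941 (3.22, SE 0.55, adjusted p = 0.00589), or 4.12 and 2.32. Timp1, Loxl1, Tnc and Postn were chosen after their values were seen.

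Fibroblast and collagen genes, by contrast, split. Of 28 tested, 4 rose (14.3%) and 5 fell (17.9%), close to the shares of all genes, with a median of -0.02 and a summed intensity of 65396 and 23899 against 44192 and 43955. The rises numbered 0 without either injured array and 9 without uninjured array 1, and the falls 2 without either injured array and 8 without uninjured array 2. Fmod, the collagen-binding proteoglycan fibromodulin, fell from 1660 and 936 to 166 and 199 (-2.75, SE 0.40, adjusted p = 0.00371), and all 6 of its probe sets were called lower. Col4a1, a chain of the basement membrane collagen, fell from 4870 and 2439 to 589 and 539 (-2.60, SE 0.41, adjusted p = 0.00465) on both probe sets. Bgn, the proteoglycan biglycan, rose on all 3 of its probe sets, from 580 and 728 to 2639 and 3036 (2.12, SE 0.44, adjusted p = 0.012; 0.0707 and 0.0835 without injured array 1 and 2). For the main fibrillar collagens the uninjured arrays differed from each other, as in Col3a1, with 7755 and 1402 against 10290 and 10693 and an adjusted p of 0.114. Col3a1 was chosen after its values were seen, and its groups did not overlap.

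Genes of neutrophil granules had the lowest median log2 fold change of the 38 lists. Of 16 tested, 12 fell (75.0%) and 1 rose (6.25%), and the median log2 fold change was -4.25, against -0.25 for all genes. The summed intensity was 38618 and 22435 on the uninjured arrays and 2500 and 2565 on the injured arrays. Ngp, neutrophilic granule protein, had 7653 and 5115 in uninjured muscle and 33.3 and 28.2 in injured muscle, at least 151-fold lower. Lcn2, the iron-trapping lipocalin of secondary granules, had 1505 and 938 against 34.1 and 31.4, at least 28.9-fold lower. S100a8, a calcium-binding protein of neutrophils and monocytes, fell from 6541 and 3444 to 146 and 77.5 (-5.42, SE 0.41, adjusted p = 0.000518). Its partner S100a9 fell from 7266 and 3241 to 143 and 177 (-4.90, SE 0.38, adjusted p = 0.000542). All of these were bright on both uninjured arrays, and on both bone marrow arrays as well. In marrow Ngp had 8722 and 9434, Lcn2 5581 and 4366, S100a8 6884 and 8871, and S100a9 7236 and 7892. Csf3r, the receptor of granulocyte colony-stimulating factor, which monocytes carry too, was the 1 member that rose, from 106 and 428 to 775 and 762 (1.83, SE 0.56, adjusted p = 0.0454). Csf3r was chosen after its values were seen, and it lost its call without any single marrow, injured or transplanted array. Its change was 0.84 without uninjured array 1 and 2.81 without uninjured array 2, and its adjusted p was 0.179 and 0.164 without injured array 1 and 2.

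Of 20 B cell genes tested 12 fell and 2 rose, with a median of -2.37. The rises numbered 0 without injured array 1 and 1 without injured array 2. Jchain, which joins immunoglobulin A and M molecules, had 2221 and 2883 against 7.05 and 3.82, at least 60.3-fold lower. Pou2af1, a coactivator of B cell transcription, had 634 and 600 against 2.77 and 0.809, at least 14.6-fold lower. Cr2, the complement receptor CD21, had 623 and 596 against 5.23 and 4.32, at least 14.5-fold lower. All injured values of these 3 genes lay under the filter value of 38.4. On the bone marrow arrays Jchain had 4052 and 3439, Pou2af1 1651 and 1443, and Cr2 701 and 662. The 2 members that rose were Blnk, an adaptor of the B cell receptor that macrophages also express, with 295 and 697 against 1433 and 1578, and Cd72, with 213 and 474 against 1494 and 1496. They were chosen after their values were seen. Cd72 had an adjusted p of 0.00621 that was 0.0515 without injured array 1. Blnk lost its call without injured array 1 (adjusted p = 0.0961) and 2 (0.109), and its log2 fold change was 1.10 without uninjured array 1 and 2.33 without uninjured array 2.

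Of 18 T cell genes 13 fell (72.2%) and 0 rose, with a median of -2.31, and 4 fell without injured array 1 and 5 without injured array 2. Lat, the membrane adaptor of the T cell receptor, fell from 611 and 667 to 63.4 and 62.8 (-3.26, SE 0.43, adjusted p = 0.00254). Cd2, an adhesion receptor of T and natural killer cells, had 471 and 683 against 60.4 and 55.1 (-3.21, SE 0.32, adjusted p = 0.00113). Of 18 natural killer and cytotoxic genes 7 fell (38.9%) and 1 rose, with a median of -1.22, and 4 fell without either injured array. Nkg7, a protein of cytotoxic granules, fell from 293 and 371 to 56.6 and 60.8 (-2.41, SE 0.32, adjusted p = 0.00252). The summed T cell intensity was 9145 and 5561 against 1739 and 1809. Ncr1, a receptor specific to natural killer cells and related innate cells, was under 38.4 on all 4 arrays (30.3 and 22.9 against 32.2 and 28.7); it was chosen after its values were seen.

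Mast cell, basophil and eosinophil genes fell in 7 of 16 cases (43.8%) and rose in 0, with a median of -1.69, a summed intensity of 8982 and 9463 against 3547 and 3223, and 4 and 3 falls without injured array 1 and 2. Mcpt8, a protease of basophils, had 141 and 135 against 6.88 and 1.85, at least 3.35-fold lower. Gata2, a transcription factor of progenitors and mast cells, fell from 664 and 618 to 48.5 and 66.4 (-3.41, SE 0.33, adjusted p = 0.00103). On its other, dimmer probe set the groups overlapped and the test was not passed (-0.36, adjusted p = 0.705). Cma1, a chymase of connective tissue mast cells, had 2402 and 2258 against 1428 and 1333 and did not pass the test (-0.75, SE 0.30, adjusted p = 0.0985). It was chosen after its values were seen. Other mast cell genes of the list fell. Cpa3, mast cell carboxypeptidase, had 3734 and 2378 against 882 and 766 (-1.85, SE 0.33, adjusted p = 0.00703), with adjusted p = 0.0514 and 0.0627 without injured array 1 and 2. Hdc, which makes histamine, had 732 and 1404 against 147 and 146 (-2.76, SE 0.43, adjusted p = 0.00466), a call lost when its probe sets were averaged.

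Stem and progenitor genes bear on the Sca1 side of the sort, and 13 of 20 fell (65.0%) and 0 rose, with a median of -1.90. The falls numbered 5 without either injured array and 9 without uninjured array 1. Hlf, a transcription factor of blood stem cells, had 145 and 106 against 8.58 and 4.20, at least 3.06-fold lower. Its other probe set was not called (-1.25, adjusted p = 0.151). Kit, the stem cell factor receptor, which mast cells share, fell from 298 and 289 to 45.6 and 19.5 (-3.12, SE 0.62, adjusted p = 0.00993). Its call was lost without injured array 2 (adjusted p = 0.072) and with array weights. Of the 13 falling members, Tek, Esam and Cd34 are also endothelial genes, and Gata2 and Kit are also mast cell genes.

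Endothelial, pericyte and muscle fibre genes mark cells that carry no CD45, and many were bright in the uninjured sort. Of 25 endothelial genes 17 fell (68.0%) and 1 rose, with a median of -2.46, a summed intensity of 22432 and 18711 against 3141 and 3105, and 8 and 9 falls without injured array 1 and 2. Kdr, the main receptor of vascular endothelial growth factor, fell from 2011 and 996 to 70.2 and 72.0 (-4.24, SE 0.38, adjusted p = 0.00092). Vwf, von Willebrand factor, had 807 and 1408 against 62.1 and 85.3 (-3.80, SE 0.52, adjusted p = 0.00294). Cdh5, the junction protein VE-cadherin, chosen after its values were seen, had 247 and 289 against 60.1 and 33.7 (-2.46, SE 0.39, adjusted p = 0.00468). These endothelial genes did not overlap between the groups. Of 13 pericyte and smooth muscle genes 9 fell (69.2%) and 0 rose, with a median of -2.64 and a summed intensity of 11992 and 10262 against 1729 and 1783. Rgs5, a pericyte regulator of G proteins, fell from 2190 and 2627 to 124 and 190 (-3.93, SE 0.47, adjusted p = 0.00199). Another of its probe sets was called too (-2.67, adjusted p = 0.00713). A further one had overlapping groups and was not called (-1.05, adjusted p = 0.352). Acta2, smooth muscle actin, fell from 3361 and 3193 to 589 and 540 (-2.53, SE 0.27, adjusted p = 0.00137).

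Of 30 skeletal muscle fibre genes 16 fell (53.3%) and 0 rose, with a median of -1.66 and a summed intensity of 9306 and 10978 against 2645 and 2598. There were 9 and 7 falls without injured array 1 and 2. Tnnc2, the calcium sensor of fast fibres, fell from 1329 and 1320 to 121 and 96.6 (-3.57, SE 0.38, adjusted p = 0.00138). Myh4, the myosin of the fastest fibres, had 226 and 262 against 15.8 and 16.6 and was at least 5.85-fold lower; it was chosen after its values were seen. Tpm2, a tropomyosin of slow fibres and smooth muscle, fell from 2641 and 1443 to 301 and 395 (-2.49, SE 0.38, adjusted p = 0.00416). A dimmer probe set of Tpm2 was not called (-2.08, adjusted p = 0.0582). Acta1, the main actin of fibres, had 328 and 800 against 398 and 321, so its groups overlapped (adjusted p = 0.638), and it was chosen after its values were seen. The part that RNA of these CD45-negative cells had in the lower values of the injured sort was not tested.

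Proliferation genes moved in part. Of 30 mitosis genes 8 rose (26.7%) and 2 fell (6.67%), with a median of 0.40, and the rises numbered 2 and 1 without injured array 1 and 2. The falls numbered 4 without uninjured array 2 and 0 without any single injured or transplanted array. Ube2c, the enzyme that marks mitotic proteins for destruction, rose from 56.0 and 88.5 to 615 and 512 (2.92, SE 0.34, adjusted p = 0.00181). Of 30 DNA replication genes 2 rose and 2 fell (6.67% each), with a median of -0.19. Without either injured array 0 rose, and 4 rose without uninjured array 1, while 5 fell without uninjured array 2, 3 without uninjured array 1, 1 without injured array 2 and 0 without injured array 1. Cdk1, the kinase that drives mitosis, had 122 and 120 against 372 and 525 (1.84, SE 0.33, adjusted p = 0.00729), and 0.0692 without injured array 2. In both genes the injured arrays lay above both uninjured ones.

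Of 18 heat shock genes tested, 11 fell after injury (61.1%) and 1 rose, with a median of -1.15, and 5 fell without either injured array. These chaperones refold damaged protein, and 3 of them fell on all their probe sets. Hspa1b, an inducible HSP70, fell from 4958 and 5133 to 642 and 554 (-3.07, SE 0.52, adjusted p = 0.00569). Hsph1, its cochaperone HSP105, had 2792 and 2147 against 295 and 311 (-2.996, SE 0.30, adjusted p = 0.00113). Hspb1, the small heat shock protein HSP27, had 2620 and 3473 against 410 and 505 (-2.72, SE 0.34, adjusted p = 0.00208). Both uninjured arrays were several-fold above both injured arrays for these genes. Hspa8, the constitutive member of the family, was the 1 that rose, from 9912 and 8823 to 15038 and 13635 (0.61, SE 0.14, adjusted p = 0.0185); it was chosen after its values were seen, and 1 of its 4 probe sets was called. Its call was lost without injured array 1 (adjusted p = 0.128) and 2 (0.0705) and under cyclic loess and array weights, and its sign turned under quantile normalization (-0.11) and without the cross-reacting probe sets (-0.38).

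The mitochondrial chaperones Hspd1 and Hspe1, HSP60 and HSP10, lie head to head and share a heat shock element between their starts. They are the members of the list in whose windows the letters GAA, NN, TTC, NN and GAA in a row were found (2 of 14 with a window, against 0.466% of all 32851 windows, both strands searched, overlapping matches kept). The site is shown in capitals from each gene's side in build GRCm38.p6, read 5′ to 3′ on that gene's strand.

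Hspd1 (chr1:55088052-55088081, minus strand): gggccTTCCGGAAGGTTCTAGAAcggaccg
Hspe1 (chr1:55088054-55088083, plus strand): gtccgTTCTAGAACCTTCCGGAAggccccg

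Hspd1 had 1741 and 1863 against 965 and 820 (-1.01, SE 0.26, adjusted p = 0.0251), and Hspe1 had 1439 and 1519 against 613 and 722 (-1.15, SE 0.28, adjusted p = 0.0201). The groups did not overlap on these probe sets. A second probe set of Hspe1 went the opposite way without passing the test, with 121 and 162 against 290 and 271 (0.98, adjusted p = 0.0617), so no direction is drawn for Hspe1. Both were chosen after their values were seen and lost their calls without injured array 1 (adjusted p = 0.0977 and 0.139) and 2 (0.152 and 0.0835). The letters were not found in the windows of the other members, from which nothing follows about the factor.

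Among housekeeping groups the proteasome stood out by its count. Of 31 tested subunits 11 rose (35.5%) and 0 fell, with a median of 0.76; the rises numbered 3 without either injured array. Psma7, a ring subunit, rose from 256 and 253 to 1623 and 1678 (2.68, SE 0.29, adjusted p = 0.00139), and both of its probe sets were called. Psmd8, a subunit of the regulatory lid, had 248 and 528 against 2787 and 2406 (2.82, SE 0.38, adjusted p = 0.00268). Of 27 genes of the actin cytoskeleton and podosomes 10 rose (37.0%) and 3 fell, with a median of 0.97, 5 rises without either injured array and 15 without uninjured array 2. Vim, the intermediate filament vimentin, rose on all 3 of its probe sets, from 4723 and 6518 to 18664 and 18910 (1.76, SE 0.22, adjusted p = 0.00208). The groups did not overlap for these 3 genes.

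Of 23 glycolysis and hypoxia genes 4 rose (17.4%) and 1 fell, and of 27 oxidative phosphorylation genes 4 rose (14.8%) and 1 fell. Tpi1, triosephosphate isomerase, rose on all 3 of its probe sets, from 601 and 870 to 2575 and 2245 (1.73, SE 0.26, adjusted p = 0.00415). Of 27 cytosolic ribosomal protein genes 4 rose (14.8%) and 1 fell. The rises of these 3 lists became 8, 8 and 10 without uninjured array 2, and 1, 2 and 1 without injured array 1. Their falls became 4, 4 and 2 without uninjured array 2. Of 24 unfolded protein response genes 6 fell and 1 rose, with 2 falls without injured array 1 and 5 rises without uninjured array 2. Dnajb9, a chaperone of the endoplasmic reticulum, fell from 2248 and 1436 to 249 and 363 (-2.56, SE 0.34, adjusted p = 0.00252), while Pdia3, a disulfide isomerase there, rose from 613 and 495 to 2890 and 3300 (2.48, SE 0.34, adjusted p = 0.00304). Of 27 immediate early genes 4 rose and 4 fell (14.8% each), with rises of 9 without uninjured array 2 and falls of 1 without injured array 1. Tnfaip3, the NF-kB inhibitor A20, rose from 32.0 and 42.9 to 1168 and 1712 (5.11, SE 0.51, adjusted p = 0.00113), the largest change in that list. Of the lists not yet named, growth factors of repair had 2 of 16 higher and 2 lower, satellite and myogenic genes 0 of 11 higher and 3 lower, p53 targets 1 of 17 higher and 3 lower, and megakaryocyte and erythroid genes 0 of 10 higher and 2 lower each. With 1 array left out, growth factor rises numbered 0 (either injured array) to 5 (uninjured array 2), and their falls 0 (either injured array or uninjured array 2) to 2. The falls of satellite genes numbered 1 (either injured array or uninjured array 1) to 3, and those of p53 targets 1 (either injured array) to 5 (uninjured array 2). The falls of megakaryocyte genes numbered 1 without either injured array, and those of erythroid genes 0 without either and 1 without uninjured array 1.

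**Figure D4:**
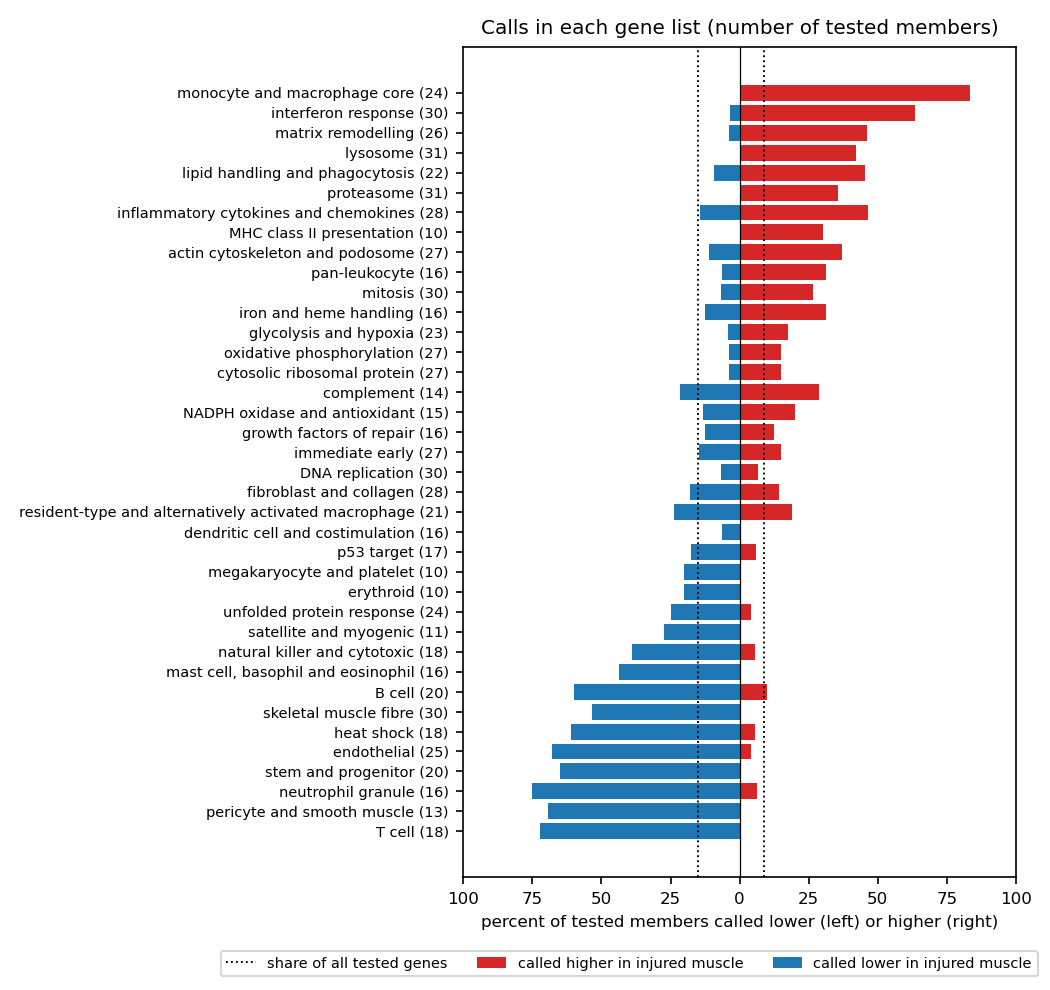
Percent of the tested members of each of 38 gene lists that were called higher (right) or lower (left) in injured muscle, with the number tested in brackets and dotted lines at the shares of all tested genes, 8.77% higher and 15.1% lower. The monocyte and macrophage list has the highest share of rises (83.3%), and the neutrophil, T cell, pericyte and endothelial lists have the highest shares of falls (75.0%, 72.2%, 69.2% and 68.0%).

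For 130 of the 3544 genes with several probe sets (3.67%) the probe sets were called in opposite directions, and 14 of these belong to the lists. Actb, beta-actin, had 1 probe set at 2.13 (adjusted p = 0.0224) and another at -1.78 (adjusted p = 0.012). The call of the brighter one was lost under quantile normalization, without uninjured array 2 (adjusted p = 0.0532) and without injured array 1 (0.104) and 2 (0.102). Klf6, a zinc finger transcription factor, gave 4.48, 0.65 and -1.27 on its 3 probe sets. Hif1a, the oxygen-regulated transcription factor, gave 3.54 on 1 probe set and -1.26, -0.45 and -0.31 on the others. No direction is drawn here for these genes. Rpl35, a ribosomal protein, rose on 5 of 6 probe sets (0.53 to 1.12) and fell on the sixth (-2.15). By the ending of the probe set name, 25.9% of the 1223 tested _x_at probe sets, which may cross-hybridise, were called lower and 8.91% higher, against 11.4% and 18.2% of _a_at probe sets, which match transcripts of 1 gene.

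**Figure D5:**
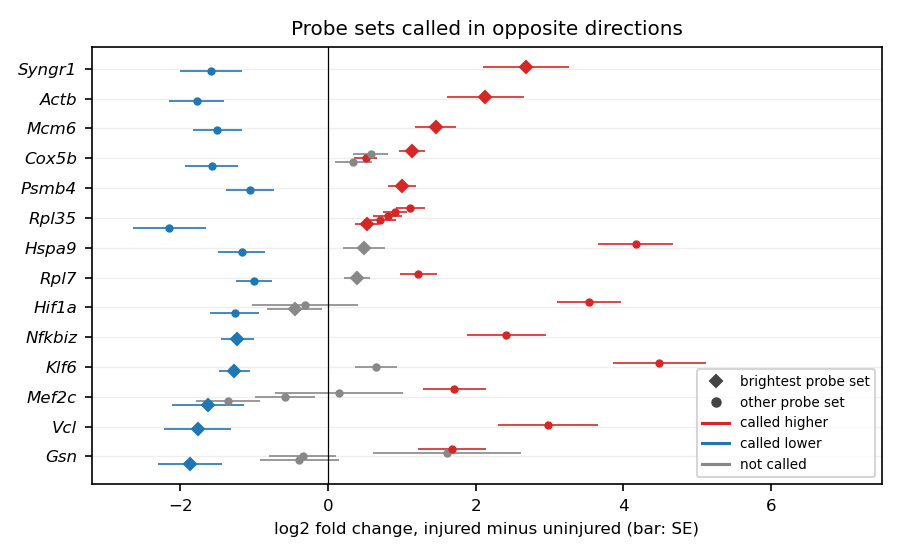
Log2 fold change (injured minus uninjured, bars SE) of every tested probe set of the 14 list genes whose probe sets were called in opposite directions, with the brightest probe set as a diamond. The values of Klf6 run from -1.27 to 4.48 and those of Actb from -1.78 to 2.13.

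Injured muscle of transplanted mice gives a side view of the same genes on arrays with RNA controls like those of the untransplanted injured arrays. Both comparisons share the untransplanted injured arrays, so the values are only set side by side. Between transplanted and untransplanted injured muscle 4 of 9513 genes were called higher (0.042%) and 26 lower (0.273%). Zbp1 had 2020 and 2278, Ncf1 1151 and 1065, and Cxcl16 2229 and 2180 on the transplanted arrays, near their untransplanted injured levels. Neutrophil and B cell genes were low there as well, with Ngp at 36.3 and 21.2 and Jchain at 20.0 and 23.2. Postn had 215 and 199 (log2 transplanted minus untransplanted -3.77, adjusted p = 0.0489). Tnc had 70.2 and 94.2 and Loxl1 108 and 113, which did not pass that test (adjusted p = 0.0761 and 0.0647). Mmp12 had 1984 and 1575, above its untransplanted values of 444 and 461, and did not pass it either (1.96, adjusted p = 0.0677). Cx3cr1, with 486 and 391, was also below its untransplanted injured values of 1721 and 1482, again without passing the test (adjusted p = 0.344).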

How the data were processed

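RNA of 8 samples was measured on Affymetrix mouse 430A arrays from 1 µg of total RNA each, per the labels' protocols. Each probe set has 1 deposited intensity per array, and the authors' values share a 2% trimmed mean (checked); GCOS is named in the submitters' processing notes, and how probes were summarised is not given in the sources used here. Of 22690 probe sets 64 controls were left out; 20380 had 1 gene, 691 several and 1555 none in the annotation. Values were floored at 1, and log2(value + 4) was used, 4 being the 10th percentile. Testing was limited to probe sets that reached 38.4, the 40th percentile, on at least 2 of 8 arrays, and was done with limma 3.58.1 (R 4.3.3), with 1 mean per group on all 8 arrays and eBayes with a trend; p-values are two-sided and Benjamini-Hochberg adjusted over all tested probe sets. The number of arrays limits precision (median SE 0.45). A fold given as "at least" is against 38.4, since neither array of the dimmer group reached it; that value is not a detection limit.

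Named genes were the 15 largest rises and 15 largest falls, by the median over probe sets, among genes with 2 or more tested probe sets that were all called one way, with groups apart and the higher mean at or above 64.2 on each; up to 4 called members per list with the smallest p, genes with agreeing probe sets first; Ptprc, Ly6a; and list members with opposite calls. Y-linked genes, Xist and Tsix were left out. Every other gene is marked in the text as picked with its values in view. The members and lists were chosen with earlier results of these data known. Promoter windows are RefSeq sequences of build GRCm38.p6, matched by symbol; windows that overlap an annotated gene were cut to a site of 30 bases. Alternatives were 3 scalings (quantile, cyclic loess, median centring), other pseudocounts and filters, the 4 arrays alone, no trend, array weights, a replicate block, no _x_at probe sets, probe sets averaged per gene, and each array left out. The fit was tested on simulated data.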

Additional observations from a re-analysis of the deposited data

Results flagged for a closer look

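For 7 of the named genes the difference between transplanted and untransplanted injured muscle passed its own limma test. No uninjured muscle of transplanted mice was measured. A changed response to injury therefore cannot be told apart from an effect of the transplant alone. The untransplanted injured arrays also enter the difference from uninjured muscle. Gzma, granzyme A, fell after injury without a transplant and was 1660 and 1659 on the transplanted arrays (log2 transplanted minus untransplanted 4.32, adjusted p = 0.0123). Txk, a kinase of T cells, was 53.3 and 86.2 there against 3.30 and 2.23 (3.41, adjusted p = 0.0406); both untransplanted values lie under the filter value of 38.4, so the size of this difference is not measured. Cpa3, mast cell carboxypeptidase, was lower with a transplant (-3.81, adjusted p = 0.0123), at 53.8 and 55.5 against 882 and 766. Tnnc2, fast fibre troponin C, was lower (-3.37, adjusted p = 0.0291), and so was H2-Aa, a class II chain (-1.75, adjusted p = 0.0291). Of the matrix genes, Postn differed by -3.77 (adjusted p = 0.0489) and Serpinf1, a secreted protein of fibroblasts, differed by -2.42 (adjusted p = 0.0291).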

How the results depend on the processing

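The counts of calls changed when 1 array was left out, and fits that leave 1 array in a group also change in precision. With 1 array left out, probe sets called higher numbered 609 to 3290 and lower 706 to 2785, genes called higher 191 to 1756 and lower 449 to 1799, genes with all of several probe sets higher 10 to 232 and lower 13 to 130. With only the 4 arrays compared, 1044 and 1028 probe sets, 376 and 668 genes, and 28 and 28 agreeing genes were called higher and lower. Array weights gave 1172 probe sets, 768 genes and 27 agreeing genes lower, and 1528 probe sets higher, 56.6% of calls; no filter left 53 agreeing falls. Deviations of arrays with the same replicate number correlated at -0.032 between uninjured and injured muscle, and at 0.31 between marrow and uninjured muscle. Whether the replicate numbers pair any samples of the fit is therefore not settled. With a replicate block 1986 and 2298 probe sets were called higher and lower. Of 206 called named genes 104 kept their call in every setting, and 96 lost it without an injured array. The sign turned for Rpl35 (-0.018), Rpl7 (-0.11), Hspa8 (-0.11) and Ptprc (-0.27) under quantile normalization, Ptprc (-0.18) under cyclic loess and without an uninjured array (-0.0022 to 0.39), Hif1a without an uninjured array (-0.91 to 0.0032), and Aco1 (0.61), Gsn (1.68) and Hspa8 (-0.38) without _x_at probe sets. With probe sets averaged per gene it turned for Gsn (0.14), Hspa8 (-0.26), Mcm6 (-0.021), Klf6 (1.29), Nfkbiz (0.59), Hif1a (0.38), Ndufv2 (-0.16), Psmb4 (-0.031) and Vcl (0.61), by construction, since their probe sets disagree; the cause of the other changes was not tested. Signals under 38.4 limit the size of the falls to lower bounds.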
